A study of Mus musculus with 6 samples.

Results

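The elastic fibre genes listed here were elastin (Eln), the fibrillins Fbn1 and Fbn2, the fibulin family members Fbln1, Fbln2, Fbln5, Efemp1 and Efemp2, and the microfibril-associated glycoproteins Mfap2 and Mfap5. Members were taken as all probe sets of the deposited table whose only annotated gene symbol was one of these names. This gave 16 probe sets of 8 genes, out of 45037 probe sets tested. Fbn1 and Efemp2 had no such probe set and were not analysed here.

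Elastic fibres give skin, vessels and lung their recoil. They form when tropoelastin, the soluble product of Eln, is deposited on a scaffold of fibrillin microfibrils and cross-linked by lysyl oxidases, with fibulins guiding the deposition and microfibril-associated glycoproteins decorating the scaffold. In tumours and skin these proteins are made mainly by fibroblasts and other mesenchymal cells, and fibrillin microfibrils also hold latent TGF-beta.

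The tumours grew from GLMT1 cells, a line named for a lung metastasis tumour of the GRS/A mouse strain, placed beneath the back skin of male hosts. The hosts were GRS/A mice, wild type for tenascin-C (WT, 3 tumours) or GRS/A-TgH(TnC) mice, tenascin-C-deficient (TNKO, 3 tumours). All hosts shared the GRS/A background and received the same line. They were 8 weeks old at the start and 10 weeks old in the sample labels. Tenascin-C was lost from the host only: the labels do not describe GLMT1 cells as lacking it. Each tumour, described as a biological replicate, was hybridised to 1 Affymetrix array. The comparison addresses how tumour gene expression differed when the host lacked tenascin-C, a matrix glycoprotein. Whole tumours hold tumour and host cells, so fewer cells of a type and less RNA per cell cannot be told apart.

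The deposited values behave as log2 intensities, but differences between arrays were very small: the median probe set spanned 5.46e-06 log2 units from its lowest to its highest array. Each difference below is the TNKO mean minus the WT mean, on the scale of the deposited log2 values, and it says nothing of the fold of RNA. It is also given in residual SDs, 1 residual SD being the pooled spread of that probe set between tumours of 1 group. Levels of different probe sets were not compared, since probe sets differ in how they hybridise. Arrays 1 and 2 of the TNKO hosts were low in skeletal muscle markers (summed log2 level of 7 genes 44.7 and 45.3, against 48.7 or more in the other 4 arrays). TNKO tumour 3 was high in hair genes, with Krtap8-1 at 12.6 and Tchh at 11.6, and Krt71 was also highest there. The epidermis markers Krt10, Krt1 and Lor were instead highest in WT tumour 3. Summed over these 6 hair and epidermis genes, the level was 50.3 in TNKO tumour 3, against 37.5 to 37.9 in the other arrays. The median over all probe sets of TNKO tumour 3 lay 0.00226 above that of any other array, and the other 5 medians lay within 0.000187 of each other. Tnc itself was lower in TNKO hosts in its brighter probe set, at 9.02 ± 0.024 in WT and 8.82 ± 0.018 in TNKO hosts (SD, n = 3 each), with an adjusted p of 0.0537 by limma. Its dimmer probe set was lower too, with a difference of -0.000671 (-3.46 residual SDs, adjusted p = 0.125 by limma). The groups did not overlap in either. Neither passed the threshold of 0.05, so the test did not call even the gene removed from the host.

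Of the 16 elastic fibre probe sets, 13 had a higher mean in TNKO hosts and 3 a lower mean, while over all probe sets 54.4% had a higher mean. No elastic fibre gene rose or fell by the test over all probe sets: limma with Benjamini-Hochberg adjustment called 0 of 16, where 0.175% of all probe sets were called (0.0422% as higher and 0.133% as lower in TNKO hosts). At an unadjusted p under 0.05 there was 1 of 16, the brighter probe set of Fbln5, against 20.3% of all probe sets. In the same probe set alone the 3 TNKO values all lay above the 3 WT values, which 14.2% of all probe sets did, and in 0 of 16 did they all lie below, against 13.8% of all. Read from the brightest probe set of each gene, 7 of 8 genes had a higher mean in TNKO hosts and Eln a lower one. The median difference of the 8 genes was 0.84 residual SDs, and that of all probe sets was 0.17. With the sign left out, the medians were alike, at 1.06 residual SDs for the 8 genes and 1.05 for all probe sets.

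Several of these genes ranged widely between single tumours. A span of at least 0.0001 log2 units over the 6 arrays was reached by 10 of the 16 elastic fibre probe sets, and by 7.19% of all probe sets. A span of at least 0.001 was reached by 4 of 16 (both probe sets of Mfap5 and 1 each of Efemp1 and Fbn2), against 1.75% of all. The widest was Mfap5, at 0.00598, wider than 99.3% of all probe sets. Eln's dimmer probe set spanned 1.46e-06 and the 6.03-level probe set of Fbln5 spanned 7.68e-06, both near the middle or lower part of all probe sets.

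**Figure D1:**
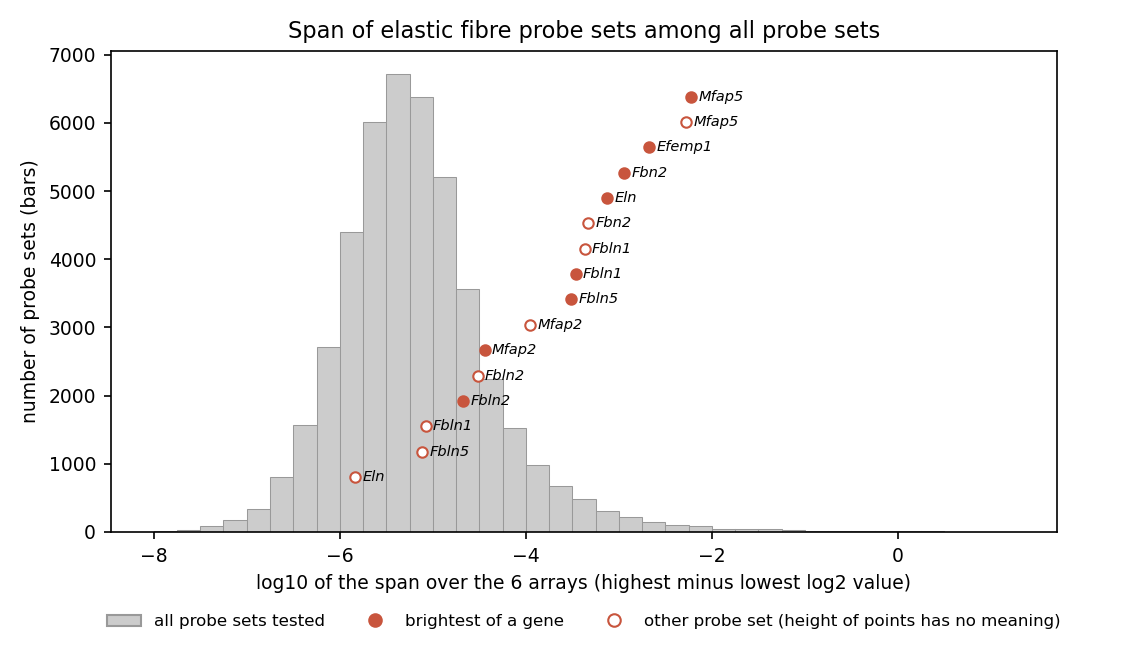
Horizontal axis: log10 of the span of a probe set over the 6 arrays in log2 units. Bars: number of all 45037 probe sets. Points: the 16 elastic fibre probe sets, filled for the brightest of each gene, stacked by rank so that their height has no meaning. The Mfap5 points lie furthest right, at 0.00598 and 0.00528, and 10 of the 16 points lie at 0.0001 or beyond.

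Elastin, the protein that gives the fibre its stretch, was measured by 2 probe sets. In the brighter one the values were 7.50687, 7.50666 and 7.50651 in WT tumours 1, 2 and 3 and 7.50612, 7.50647 and 7.50664 in TNKO tumours 1, 2 and 3. TNKO tumour 1 was the lowest and WT tumour 1 the highest, and the groups overlapped, since TNKO tumour 3 lay above WT tumour 3. The difference was -0.000269 (SE 0.000185, 95% interval -0.000726 to 0.000188), or -1.19 residual SDs, with an adjusted p of 0.453 by limma. The dimmer probe set, at a level of 6.84, differed by -2.95e-07 (adjusted p = 0.79 by limma). The 2 probe sets pointed the same way in the group means but did not rank the tumours alike, with WT tumour 1 the highest in one and the lowest in the other. The skeletal muscle markers were also lowest in TNKO tumours 1 and 2, the 2 lowest arrays for the brighter probe set of Eln, and their part in it was not tested.

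Among 467 other genes whose brightest probe set spanned at least 0.001, the profiles nearest to that of Eln over the 6 arrays were those of Gpr171, a G protein-coupled receptor, H2-Ab1, an MHC class II beta chain, and Cxcl11, a chemokine. Their root mean square distances from Eln, with each gene standardised over the 6 arrays, were 0.304, 0.374 and 0.430. As for Eln, WT tumour 1 was the highest array for each of these 3 genes, and TNKO tumours 1 and 2 were the lowest of the 6. The genes were chosen by that distance, so the shared order of arrays follows from the choice. Eln itself spanned 0.00075, less than the 0.001 asked of the other genes.

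Fbn2 encodes fibrillin-2, a microfibril protein best known from developing tissue. Its brighter probe set stood at 7.93775, 7.93769 and 7.93702 in the WT tumours and at 7.93799, 7.93816 and 7.93767 in the TNKO tumours. WT tumour 3 was the lowest and TNKO tumour 2 the highest, and TNKO tumour 3 lay inside the WT range. The difference was 0.000455 (SE 0.000274, 95% interval -0.000221 to 0.00113), or 1.36 residual SDs (adjusted p = 0.398 by limma). The other probe set, at 7.84, differed by 0.00023 (1.62 residual SDs, adjusted p = 0.328 by limma) and had the same lowest and highest arrays.

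**Figure D2:**
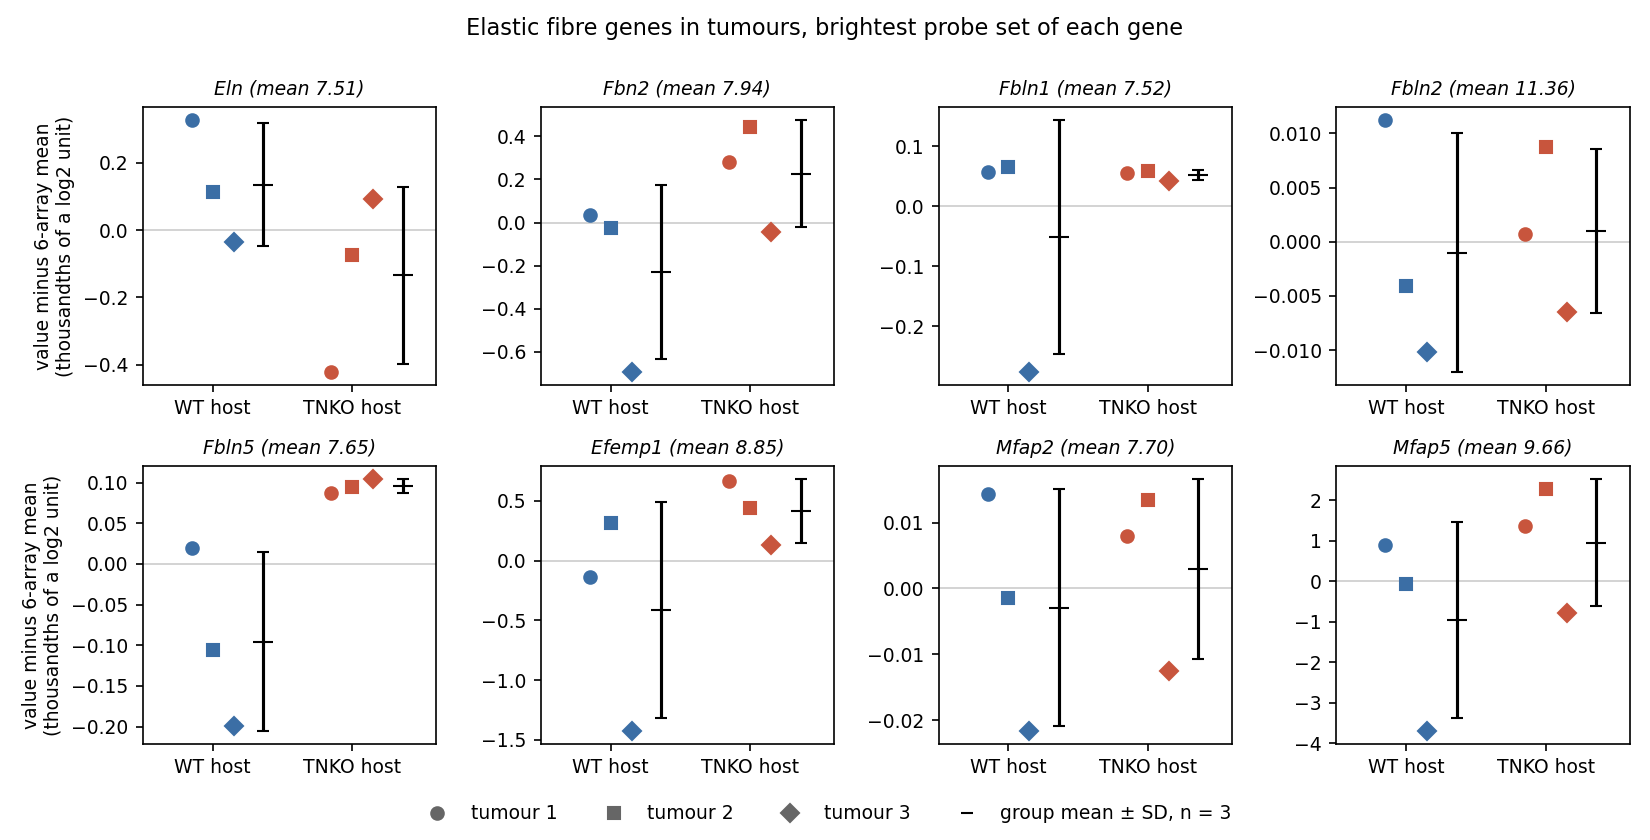
Each panel shows 1 gene, read from its brightest probe set. Vertical axis: value minus the mean of the 6 arrays, in thousandths of a log2 unit, on a scale of its own. Points are single tumours (circle, square and diamond for tumours 1, 2 and 3), and bars give the group mean ± SD (n = 3). WT tumour 3 is the lowest point in 7 of the 8 panels, all but Eln, and only in the Fbln5 panel do the groups not overlap.

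Fibulins are secreted glycoproteins that bind tropoelastin, fibrillins and basement membranes. Fbln5, which tethers elastin to microfibrils and to cell-surface integrins, had the clearest separation of the group. Its brighter probe set stood at 7.649761, 7.649635 and 7.649542 in the WT tumours and at 7.649829, 7.649837 and 7.649846 in the TNKO tumours. The TNKO tumours lay close together (SD 8.36e-06) and the WT tumours further apart (SD 0.00011). The difference was 0.000191 (SE 6.36e-05, 95% interval 3.41e-05 to 0.000348), or 2.45 residual SDs. Its unadjusted p was 0.0267 and its adjusted p was 0.193 by limma, so it did not pass. The dimmer probe set of Fbln5, at 6.03, differed by 3.52e-06 (1.52 residual SDs, adjusted p = 0.354 by limma), and its groups overlapped.

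The promoter of Fbln5 is shown because it was the only member whose groups did not overlap, and those of Fbln1 and Mfap2 because their direction rested on WT tumour 3 and they too had a RefSeq start at the outer end of the gene. Each run is the 250 bases before that start, 5′ to 3′ on the strand of the gene, from RefSeq with build GRCm38.p6. The windows are chr12:101819120-101819369 (minus strand) for Fbln5, chr15:85205699-85205948 (plus strand) for Fbln1 and chr4:141010174-141010423 (plus strand) for Mfap2. Capitals mark every match, on either strand, to the GC box GGGCGG, the SMAD box CAGAC, the AP-1 site TGANTCA or the TATA box TATAAA.
Fbln5: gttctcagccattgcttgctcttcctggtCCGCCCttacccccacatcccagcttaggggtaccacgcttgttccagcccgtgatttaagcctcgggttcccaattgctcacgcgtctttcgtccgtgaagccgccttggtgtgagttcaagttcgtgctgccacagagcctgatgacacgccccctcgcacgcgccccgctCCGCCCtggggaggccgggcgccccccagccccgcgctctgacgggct
Fbln1: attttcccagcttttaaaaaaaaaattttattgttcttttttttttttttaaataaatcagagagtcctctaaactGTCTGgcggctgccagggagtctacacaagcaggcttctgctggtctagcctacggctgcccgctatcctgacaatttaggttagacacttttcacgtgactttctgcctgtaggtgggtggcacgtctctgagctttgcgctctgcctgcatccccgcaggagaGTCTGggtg
Mfap2: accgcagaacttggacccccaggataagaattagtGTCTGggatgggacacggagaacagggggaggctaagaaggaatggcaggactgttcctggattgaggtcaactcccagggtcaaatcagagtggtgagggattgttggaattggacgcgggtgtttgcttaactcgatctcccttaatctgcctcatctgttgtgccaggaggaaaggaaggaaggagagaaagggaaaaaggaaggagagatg
Fbln5 held 2 GC boxes, which 32.7% of 32851 promoter windows of this length held at least once. Fbln1 held 2 SMAD boxes and Mfap2 held 1, and 42.2% of all windows held one. None of the 3 windows held the AP-1 site (6.75% of all windows) or the TATA box (12.4% of all). A second RefSeq start of Fbln5, further inside the gene, had 2 SMAD boxes and no GC box in its own 250 bases, and one of Mfap2 had 2 GC boxes and no SMAD box. A match is a run of letters, not a site shown to be bound.

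Efemp1, a fibulin family gene active in fascia and connective tissue, had 1 probe set. It stood at 8.844969, 8.845424 and 8.843677 in the WT tumours and at 8.845775, 8.845545 and 8.845238 in the TNKO tumours. WT tumour 3 was well below the rest, TNKO tumours 1 and 2 were the highest, and WT tumour 2 lay above TNKO tumour 3. The difference was 0.000829 (SE 0.000546, 95% interval -0.00052 to 0.00218), or 1.24 residual SDs (adjusted p = 0.436 by limma).

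Fbln1, a fibulin of elastic fibres and basement membranes, was read by 3 probe sets. The brightest stood at 7.52244, 7.52245 and 7.52211 in the WT tumours and at 7.52244, 7.52245 and 7.52243 in the TNKO tumours. Apart from WT tumour 3, the tumours of both groups nearly coincided, with an SD of 8.87e-06 among TNKO tumours and 0.000195 among WT tumours. The difference was 0.000103 (95% interval -0.000175 to 0.000381), or 0.75 residual SDs (adjusted p = 0.644 by limma). The other 2 probe sets of Fbln1 differed by 6.97e-05 (adjusted p = 0.8) and 3.05e-06 (adjusted p = 0.476), with WT tumour 3 lowest in the first of them and WT tumour 1 lowest in the second.

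Fbln2, a large fibulin that binds fibrillin and fibronectin, hardly moved. Its brighter probe set stood at 11.360778, 11.360763 and 11.360757 in the WT tumours and at 11.360768, 11.360776 and 11.360761 in the TNKO tumours. The groups overlapped over most of their range. The difference was 1.99e-06 (95% interval -1.71e-05 to 2.11e-05), or 0.21 residual SDs (adjusted p = 0.916 by limma), and the dimmer probe set differed the other way, by -8.75e-06 (adjusted p = 0.656 by limma).

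The microfibril-associated glycoproteins bind fibrillin and modulate growth factors stored there. Mfap5 showed the largest difference in log2 units of the members, but also the largest spread. Its brighter probe set stood at 9.65603, 9.65506 and 9.65144 in the WT tumours and at 9.65650, 9.65742 and 9.65436 in the TNKO tumours. Tumour 3 was the lowest of each group, and TNKO tumour 3 lay below WT tumours 1 and 2. The difference was 0.00192 (SE 0.00167, 95% interval -0.0022 to 0.00603), or 0.94 residual SDs (adjusted p = 0.554 by limma). The other probe set, at 8.71, ranked the 6 tumours in the same order and differed by 0.00159 (0.93 residual SDs, adjusted p = 0.56 by limma).

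Mfap2, the partner glycoprotein of Mfap5, had smaller differences in deposited log2 units. Its brighter probe set stood at 7.703554, 7.703538 and 7.703518 in the WT tumours and at 7.703548, 7.703553 and 7.703527 in the TNKO tumours. The groups overlapped, and tumour 3 was again the lowest of each. The difference was 5.84e-06 (95% interval -2.65e-05 to 3.81e-05), or 0.36 residual SDs (adjusted p = 0.84 by limma), and the other probe set differed by 4.44e-05 (1.15 residual SDs, adjusted p = 0.467 by limma). In residual SDs that other probe set of Mfap2 differed more than either probe set of Mfap5 (0.94 and 0.93).

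**Figure D3:**
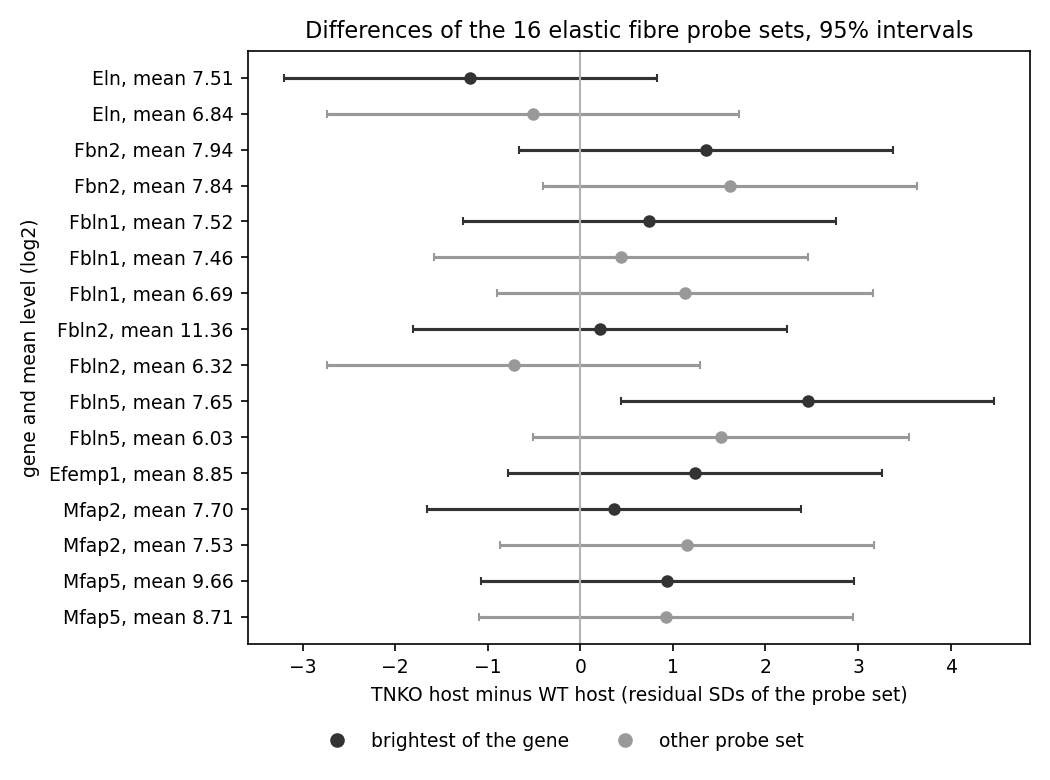
Horizontal axis: TNKO minus WT in residual SDs of each probe set, with the 95% interval of the moderated fit. Each line is 1 of the 16 elastic fibre probe sets, labelled by gene and mean log2 level, dark for the brightest of a gene and grey for the others. Only the interval of Fbln5 at 7.65 leaves out 0, at an adjusted p of 0.193.

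WT tumour 3 was the lowest of the 6 arrays in 11 of the 16 probe sets and in 7 of the 8 genes read from their brightest probe set, against 19.6% of all probe sets. Among probe sets with a span of at least 0.0001, WT tumour 3 was the lowest in 9 of 10 elastic fibre probe sets and in 27.1% of all 3237. In the same wide-ranging probe sets the TNKO mean was the higher in 9 of 10 members (42.7% of all). These were the same 9 probe sets, so this is not a separate trait. Of the 878 wide-ranging probe sets with WT tumour 3 lowest, 825 also had the higher TNKO mean. Some of the 10 were probe sets of the same gene, as for Fbn2, Fbln1 and Mfap5. An unadjusted p was under 0.05 in 1 of 10 (40.9% of all) and the groups did not overlap in 1 of 10 (49.4% of all). Over the 6 arrays, Mfap5 and Fbn2 followed each other most closely (root mean square distance of the standardised values 0.177), and Eln was at least 1.16 from each of the other 7 genes. These distances are descriptions over 6 arrays that share the host groups.

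WT tumour 3 is singled out here because it was the lowest WT tumour in all 8 genes. Leaving it out must raise the WT mean, so every difference moved down by construction, and the values show only how far. Mfap5 went from 0.00192 to 0.000547, Efemp1 from 0.000829 to 0.000323 and Fbn2 from 0.000455 to 0.000223. Fbln1 (-9.62e-06), Fbln2 (-2.58e-06) and Mfap2 (-3.54e-06) changed sign, so that 4 of 8 genes were then lower in TNKO hosts. Fbln5 kept a difference of 0.000139, with an unadjusted p of 0.0377 and an adjusted p of 0.304 by limma, and Eln one of -0.000354. Without TNKO tumour 1 the difference of Eln was -0.000125, without WT tumour 1 it was -0.000173, and without TNKO tumour 2 that of Mfap5 was 0.00125. The sign of a difference also depended on where the arrays were centred, since other scalings moved nearly all probe sets. With quantile normalization the median of all differences was -0.000538, with 661 of 45037 above 0, and with array medians subtracted it was -0.000764, with 365 above 0. Subtracting medians moves all probe sets of an array by the same amount, so differences relative to that median restate the deposited ones by construction. Relative to it, 1 of the 8 genes (Eln) was therefore again lower in TNKO hosts with medians subtracted, which is no separate check. With quantile normalization 4 of 8 were lower relative to it: Eln (-0.000522), Fbln1 (-0.00023), Fbln2 (-0.000443) and Mfap2 (-0.000235), while Fbln5 lay 2.35e-05 above it and Mfap5 0.00122 above it. All 18 hybridisation controls on the arrays were higher in TNKO hosts as deposited, by 1.73e-07 to 6.14e-05, a range that holds the differences of Fbln2 and Mfap2 in their brighter probe sets, and the part of this in the members' values was not tested.

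**Figure D4:**
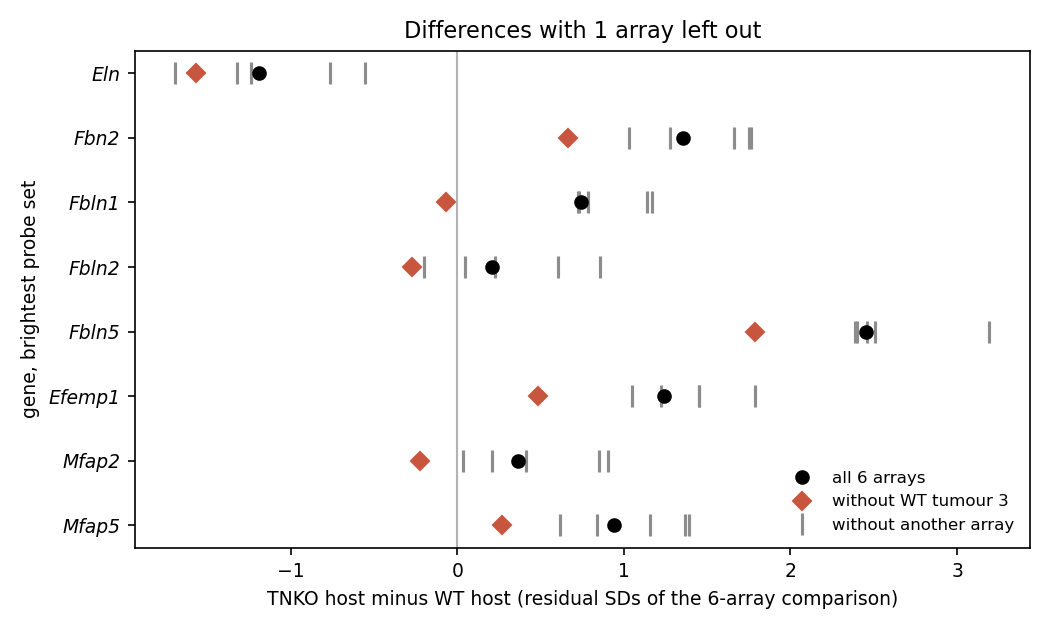
Horizontal axis: TNKO minus WT for the brightest probe set of each gene, in residual SDs of the 6-array comparison. Black points use all 6 arrays, red diamonds leave out WT tumour 3, and grey ticks leave out each of the other 5 arrays in turn. Without WT tumour 3, Fbln1, Fbln2 and Mfap2 cross 0, and Fbln5 stays at 1.79. Each red diamond lies left of its black point by construction, since WT tumour 3 was the lowest WT tumour for every gene.

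Fibroblast markers shared the low position of WT tumour 3. It was the lowest array in 8 of 10 of them, 8 of 10 had a higher mean in TNKO hosts with 0 called by limma, and the summed log2 level of the 10 ran from 108.415 to 108.433 in WT and from 108.431 to 108.442 in TNKO tumours. That sum mainly followed Lum, which spanned 0.0237 log2 units over the 6 arrays, against 0.00226 for Fap, the next widest. At an unadjusted p under 0.05 there were 2 of 10, against 20.3% of all probe sets, S100a4 higher and Dcn lower. The fibrillar collagen gene Col1a1 differed by 0.000208 (adjusted p = 0.436), Fap, a protease of activated fibroblasts, by 0.000937 (adjusted p = 0.391) and Lum, a small proteoglycan, by 0.00857 (adjusted p = 0.46), all by limma, and WT tumour 3 was the lowest array for each. The other way, Dcn differed by -4.57e-05 and Pdgfrb, a receptor of mesenchymal cells, by -1.31e-05 (adjusted p = 0.332 by limma), and WT tumour 3 was the highest array for both. Endothelial markers had a higher mean in TNKO hosts in 6 of 6 and WT tumour 3 lowest in 4 of 6, adipocyte markers in 5 of 5, and smooth muscle and pericyte markers in 2 of 7, while for macrophage and epithelial markers it was lowest in 0 of 5 and 0 of 6. Adipocyte markers were higher in TNKO hosts in 5 of 5 with 0 called, by a median of 0.31 deposited log2 units, or 1.65 residual SDs. In deposited units this was more than any member. In residual SDs it was above the median of the 8 elastic fibre genes (0.84). Of their brightest probe sets, only that of Fbln5 was higher (2.45). The summed level of the adipocyte markers ran from 35.2 to 36.9 in WT and from 36.5 to 38.8 in TNKO tumours. Of the epithelial markers, 5 of 6 had a lower mean in TNKO hosts with 0 called, and they summed to 50.1173 to 50.1178 in WT tumours and to 50.1165, 50.1159 and 50.1175 in TNKO tumours 1, 2 and 3. The deposited table has no detection calls, so no marker could be listed as absent, and the part of these markers in the elastic fibre values was not tested.

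Of 40 companion genes of elastic fibre assembly, cross-linking, latent TGF-beta storage and breakdown, 35 had a probe set. By limma 0 of 35 were called over all probe sets, and 20 had a higher and 15 a lower mean in TNKO hosts. At an unadjusted p under 0.05 there were 2 higher and 6 lower, against 9.53% and 10.8% of all probe sets. The smallest p was that of Adamts10, a secreted metalloprotease that binds fibrillin microfibrils. It stood at 6.921027, 6.921035 and 6.921029 in the WT tumours and at 6.921072, 6.921069 and 6.921061 in the TNKO tumours, groups that did not overlap. The difference was 3.66e-05 (SE 3.98e-06), or 7.51 residual SDs (adjusted p = 0.0618 by limma), within the range of the hybridisation controls. It passed when only probe sets above the median level were tested (adjusted p = 0.0415) or when probe sets of a gene were averaged (adjusted p = 0.047). It did not pass with the replicate block (adjusted p = 0.168) or with any 1 array left out (adjusted p from 0.0801 to 0.175). Relative to the median of all probe sets it lay 3.65e-05 higher with array medians subtracted, which restates the deposited difference by construction. With quantile normalization it was lower than that median, at -0.000123.

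Next in order of p were Dcn, a small collagen-binding proteoglycan that is also among the fibroblast markers, at -4.57e-05 (adjusted p = 0.104), and Adamtsl3, a protein of the ADAMTS-like family, at -2.78e-05 (adjusted p = 0.117). Elane, the neutrophil elastase, differed by 3.47e-06 (adjusted p = 0.132) and Loxl4, a lysyl oxidase family member, by -3.28e-06 (adjusted p = 0.198), all by limma. Over the whole list the groups did not overlap in 13 of 35 genes, against 28.0% of all probe sets.

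The enzymes and scaffold genes closest to the members in role did not pass either. Lox, the lysyl oxidase that cross-links elastin and collagen, stood at 10.33422, 10.33411 and 10.33320 in the WT tumours and at 10.33468, 10.33481 and 10.33419 in the TNKO tumours. WT tumour 3 was the lowest and TNKO tumour 2 the highest, as for Fbn2 and Mfap5, and the difference was 0.000715 (1.56 residual SDs, adjusted p = 0.343 by limma). Loxl1, which is tethered to elastic fibres by Fbln5, differed by 0.000315 (adjusted p = 0.433) with the same lowest and highest arrays. Mfap4, a microfibril-associated glycoprotein that binds elastin, differed by 0.000357 (adjusted p = 0.352), and its groups did not overlap. Without WT tumour 3 the differences were 0.000393 for Lox, 0.000174 for Loxl1 and 0.000174 for Mfap4, and without TNKO tumour 2 that of Loxl1 was 0.000192. Emilin1, a glycoprotein of the elastin and microfibril interface, differed by -4.55e-06 (adjusted p = 0.801), and Ltbp4, a latent TGF-beta binding protein needed for elastic fibre assembly, by -3.68e-07 (adjusted p = 0.775), all by limma.

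**Figure D5:**
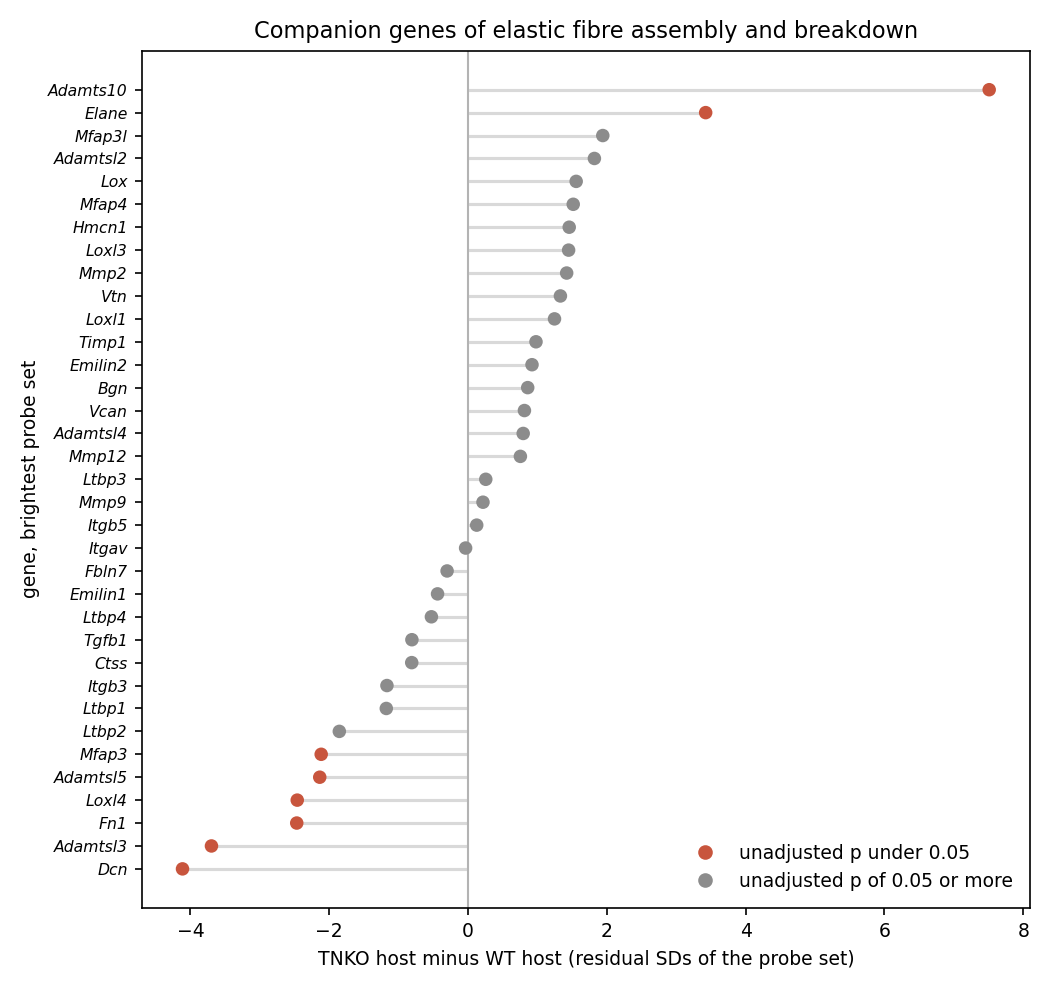
Horizontal axis: TNKO minus WT in residual SDs for the brightest probe set of each of 35 companion genes, ordered by that difference. Red points had an unadjusted p under 0.05 (8 genes) and grey points did not. Adamts10 lies furthest to the right, at 7.51, and Dcn furthest to the left, at -4.11.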

How the data were processed

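Per the labels' protocols, 100 ng of each tumour's total RNA was amplified and biotin-labelled with a 3' IVT kit. The deposited table holds 45101 values per array, taken here as log2 from their range. The submitters' processing notes name R 2.7.2. What the authors did to summarize and normalize the probes was not given in the sources used here. The 64 control probe sets were left out, which left 45037. Gene symbols came from the platform annotation of 2016. A gene was read from its probe set with the highest mean.

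A linear model with moderated variances (limma 3.58.1, R 4.3.3, lmFit then eBayes, without a block) gave two-sided tests of TNKO against WT. The p-values were adjusted by Benjamini-Hochberg across all 45037, at a threshold of 0.05. The procedure was also run on simulated data, with shifts larger in residual SDs than those of the members, so that run does not bear on differences of their size. Other settings tried were a mean over a gene's probe sets, each array left out, a replicate block, a filter at the median level, array weights, a robust or trended eBayes, medians subtracted per array, and quantile normalization. Members and lists were chosen with earlier results of these data known. Named were all members, Tnc, companion genes that passed, the 5 with the smallest p and 5 by role, and the 3 genes most like Eln with a span of at least 0.001. The same search for Fbn1 was not run. Markers named singly were chosen after their values were seen. Any 2 arrays shared 21 to 43 identical values, and none was treated as a duplicate.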

Additional observations from a re-analysis of the deposited data

How the results depend on the processing

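No elastic fibre probe set was called by limma under any alternative run. The count over all probe sets (79) was 0 with quantile normalization (591 at an unadjusted p under 0.05), 285 of 22518 above the median level, 0 with the replicate block (7816 at an unadjusted p under 0.05) and 0 to 73 with 1 array left out: 0 without WT tumour 1 or 3 (7144 and 6807 at an unadjusted p under 0.05), 73 without WT tumour 2, and 1, 4 and 6 without TNKO tumours 1, 2 and 3. Genes lower in TNKO hosts (1 of 8) numbered 5 with quantile normalization and 6 with medians subtracted (4 and 1 relative to the median of all probe sets, which these scalings moved to -0.000538 and -0.000764), 2 with averaged probe sets and 1 to 4 with 1 array left out (4 without WT tumour 3, 2 without TNKO tumour 2). Companion calls (0 of 35) numbered 1 above the median level and 1 with averaged probe sets, Adamts10 in each.

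Values below 0 in place of above it were those, with quantile normalization, of Fbln1 (-0.000768), Fbln2 (-0.000981), Fbln5 (-0.000515), Mfap2 (-0.000773), Adamts10 (-0.000661), Elane (-0.000584), Lox (-0.000295) and Loxl1 (-0.000119). With medians subtracted they were those of Fbn2 (-0.000308), Fbln1 (-0.000661), Fbln2 (-0.000762), Fbln5 (-0.000573), Mfap2 (-0.000758), Adamts10 (-0.000727), Elane (-0.00076), Lox (-4.93e-05), Loxl1 (-0.000448) and Mfap4 (-0.000407). All of the values with medians subtracted lay above the shifted median. That follows from their deposited differences, since this scaling moves all probe sets of an array alike. With quantile normalization Fbln5, Lox and Loxl1 lay above the shifted median, while Fbln1, Fbln2, Mfap2, Adamts10 and Elane lay below it, and the cause was not tested. With averaged probe sets Fbln2 turned (-3.38e-06). With 1 array left out, Fbln1 ran from -9.62e-06 to 0.000161, Fbln2 from -2.58e-06 to 8.11e-06, Mfap2 from -3.54e-06 to 1.45e-05 and Emilin1 from -1.03e-05 to 3.24e-06. The labels do not say whether replicate numbers pair the tumours. Correlations of same-numbered arrays were 0.029, -0.016 and 0.0053, which cannot decide it. The block changed no call of a member. With it, 2 of 16 member probe sets had an unadjusted p under 0.05 by limma, in place of 1, against 7816 of all 45037. The number of arrays limits the precision.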
